A study of Homo sapiens with 8 samples.

Results

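Polysome RNA was compared with input RNA in 4 lysates of OCI-AML3, a long-established cell line from human acute myeloid leukaemia, with each polysome library set against the input library of its own lysate. The comparison uses all 8 libraries of the series, 4 of input RNA and 4 of polysome RNA, and asks which transcripts are more or less abundant in polysome RNA than in the whole lysate. Lysates CT1 and CT2 carry the genotype label WT and lysates U1 and U2 the label FBL knockdown, with 2 libraries in each combination of label and fraction. The protocols name lentiviral infection with a hairpin called shCT or with shFBL, against fibrillarin, so cells of both labels had been infected. All cells received cycloheximide at 100 µg/mL for 15 min. Of each cleared lysate, 100 µL of 400 µL served as input and 290 µL went onto a gradient of 10% to 50% sucrose that was collected in 14 fractions. The sources at hand do not name the fractions that made up the polysome sample. Nothing in the labels says that lysates of a label came from separate infections or cultures, so p-values measure the spread between these 4 lysates, which may be technical.

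A polysome is a messenger RNA that carries several ribosomes. Cycloheximide holds elongating ribosomes in place, and sedimentation through sucrose parts heavy polysomes from single ribosomes, ribosomal subunits and free ribonucleoproteins. The ratio of polysome RNA to input RNA therefore ranks transcripts by their presence in the heavy part of the gradient, relative to all others in the library. An overall gain or loss of polysomes cannot be seen in such a ratio, and a long coding sequence can hold more ribosomes than a short one at the same initiation rate. RNA in other heavy particles would also sediment with polysomes.

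Gene counts ranged from 22.2 to 43.1 M (M, counts in units of 1e6) per library. They fell on 18323 to 18440 genes in input libraries and on 14344 to 15910 in polysome libraries. Of 16 listed myeloid markers all 16 were tested, with summed levels of 1887 to 2252 counts in every 1e6 after scaling (CPM) across input libraries of CT1, CT2 and U1 and 2649 CPM in that of U2. Of 15 erythroid and megakaryocyte markers 4 were tested, with summed levels of 14.0 to 31.0 CPM over all libraries, and of 16 lymphoid markers 7 were tested, at 74.7 to 132.6 CPM, most of it from CD4, which monocytic cells also express. No haemoglobin or CD3 gene of these lists passed the filter on low counts. In such bulk RNA, fewer cells of a type and less RNA in each cell cannot be told apart.

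FBL itself (ENSG00000105202, chr19:39834458-39846414 on GRCh38) stood at 250, 88.1, 253 and 84.2 CPM in input RNA of CT1, CT2, U1 and U2. Its polysome levels were 498, 163, 499 and 165 CPM, lysate by lysate. FBL was thus high in both lysates numbered 1 and low in both numbered 2, whatever their label, and the fractions overlapped. Within each lysate it was higher in polysome RNA, by a log2 ratio of 0.96 (SE 0.07, adjusted p = 5.5e-08, edgeR with the lysate as a block). Without the block the ratio was 0.97 and the adjusted p 0.11. The counts do not bear out the genotype labels, so the labels are used here only as names, and the main comparison pools all 4 lysates. The difference between labels in polysome association, tested as an interaction, was called for 9 of 16503 genes (0.0545%). They were MIR142HG, RPL37, NEAT1, KCNAB2, CLSPN, SLC16A3, RPL36, PTPA and ENSG00000262877, and all 9 had the lower ratio in the lysates labelled knockdown. The count depended on the processing: it was 0 without the lysate block, 1 (MIR142HG) at a mean of at least 10 CPM, 165 with DESeq2, and 31, 1, 924 and 71 without CT1, CT2, U1 or U2.

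Polysome and input RNA differed for a large part of the transcriptome. Of 16503 genes tested, 7097 (43.0%) were called at an adjusted p under 0.05, with 3396 higher (20.6%) and 3701 lower (22.4%) in polysome RNA. By at least 2-fold, 693 genes were higher (4.2%) and 1874 were lower (11.4%). The median log2 ratio over all genes tested was -0.29. Restricted to the 8159 genes whose mean reached 10 CPM, the median was 0.09, with 3210 called higher (39.3%) and 2448 called lower (30.0%). In a fit with offsets for GC content and transcript length, 3339 genes were called higher and 1869 lower, and 222 genes called in both fits had changed sign.

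The agreement between lysates depended on level. For genes of at least 10 CPM, the log2 ratios of any pair of lysates correlated across genes with Pearson's r of 0.808 to 0.887. Over all genes tested, r was 0.388 to 0.431. These are descriptions over genes, which share libraries and depth. Below 1 CPM the median SD of the ratio over 4 lysates was 1.78 on the log2 scale and 3.73% of genes were called. At 200 CPM or more the median SD was 0.129 and 88.5% of genes were called. Counts of calls are therefore also given for genes of at least 10 CPM where a class is scarce, and the 39.3% and 30.0% above are the background for lists of abundant genes.

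**Figure D1:**
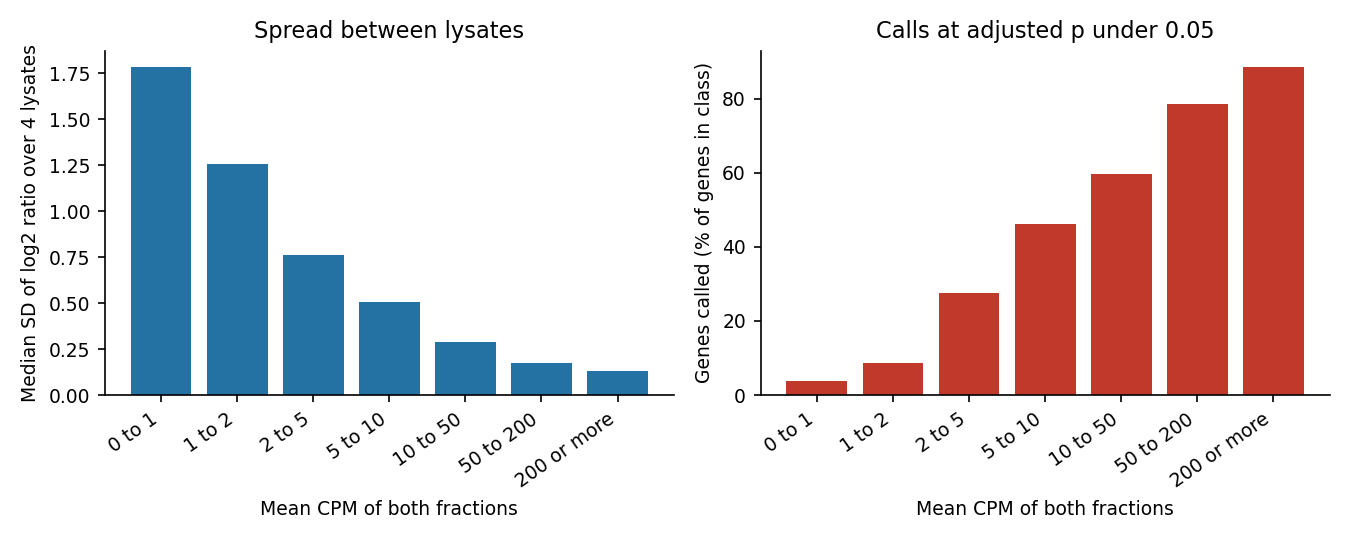
Median SD of the log2 polysome to input ratio over the 4 lysates (left) and percentage of genes called at an adjusted p under 0.05 (right), by mean CPM of both fractions. The SD drops from 1.78 below 1 CPM to 0.129 at 200 CPM or more, while calls rise from 3.73% to 88.5%.

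SNHG3 and PABPC1 were far lower in polysome RNA than in input RNA, and ISG15 was higher, each in all 4 lysates. SNHG3 (ENSG00000242125, chr1:28505980-28510892), a noncoding host of small nucleolar RNAs, stood at 295, 273, 209 and 187 CPM in input RNA of CT1, CT2, U1 and U2, and at 15.8, 17.1, 11 and 10.6 CPM in polysome RNA. It was 17.8-fold lower in polysome RNA, a log2 ratio of -4.15 (SE 0.09, adjusted p = 1.6e-12), and the fractions did not overlap. PABPC1 (ENSG00000070756, chr8:100685816-100722809) encodes the cytoplasmic poly(A)-binding protein, whose messenger RNA is a known target of translational control. Its input levels of 803, 870, 738 and 707 CPM went with polysome levels of 110, 127, 118 and 105 CPM. The log2 ratio was -2.76 (SE 0.07, adjusted p = 4.2e-12), so that a protein-coding messenger RNA stood 6.77-fold lower with no overlap. ISG15 (ENSG00000187608, chr1:1001138-1014540), an interferon-induced ubiquitin-like modifier, had 3626, 3611, 4344 and 4182 CPM in input RNA and 12878, 12682, 14353 and 14499 CPM in polysome RNA. Its log2 ratio of 1.79 (SE 0.05, adjusted p = 4.2e-12) placed it 3.46-fold higher, again with all polysome libraries above all input libraries. The ratios of the 4 lysates lay between -4.25 and -3.99 for SNHG3, between -2.87 and -2.64 for PABPC1 and between 1.72 and 1.83 for ISG15. After correction for GC content and length the fitted ratios were -3.81, -2.48 and 1.34.

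**Figure D2:**
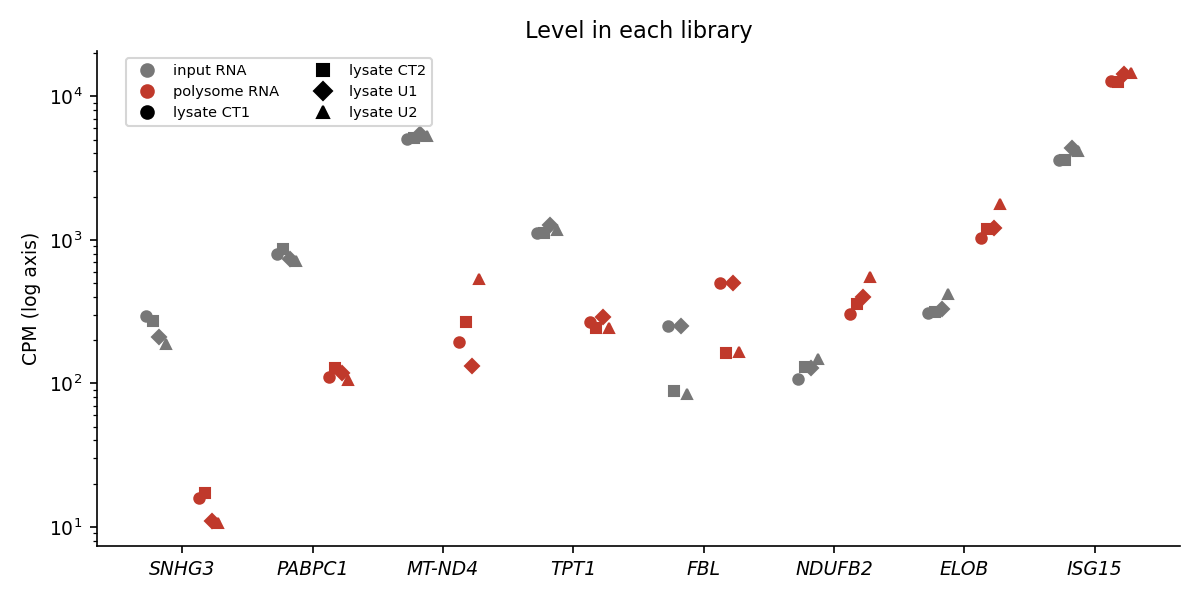
Level in CPM (log axis) of 8 genes in each library, input RNA in grey and polysome RNA in red, with a marker shape for each lysate. SNHG3, PABPC1, MT-ND4 and TPT1 have all polysome points below all input points, NDUFB2, ELOB and ISG15 all above, and FBL overlaps, with CT2 and U2 low in both fractions.

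The largest increases among protein-coding genes with at least 10 CPM in the higher fraction were SLX1B, CLSPN, EEF1G, ELOB, MIF, ISG15, GADD45GIP1 and MGMT. ELOB, a subunit of elongin and of ubiquitin ligases, rose from 307, 314, 330 and 422 CPM in input to 1036, 1185, 1219 and 1781 CPM in polysome RNA (log2 ratio 1.91, SE 0.07, adjusted p = 2.1e-10). The DNA repair protein MGMT went from 107, 124, 109 and 136 to 361, 398, 340 and 453 CPM (log2 ratio 1.70, SE 0.07). GADD45GIP1, a mitochondrial ribosome protein, and the cytokine MIF had log2 ratios of 1.74 and 1.88. None of these 4 had overlapping fractions. The other members of this set are less certain. SLX1B, a nuclease subunit with a near-identical copy, varied between lysates from a log2 ratio of 0.11 to 6.61, and its fitted ratio of 2.54 was 1.48 without U1 and was not called without the lysate block. CLSPN, a checkpoint adaptor, stood at 6.79, 5.90, 5.93 and 4.50 CPM in input and at 42.5, 155, 13.7 and 7.52 CPM in polysome RNA, a log2 ratio of 2.32 that was 1.53 without CT2 and 1.01 (adjusted p = 0.051) in the lysates labelled knockdown alone. EEF1G shares 99.9% of its exon bases with another annotated gene, so its counts are uncertain.

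Other abundant genes with at least 1000 CPM in a fraction and a log2 ratio beyond 1 included both directions. GAPDH, a glycolytic enzyme, went from 1757, 1857, 2058 and 2329 CPM in input to 3883, 4114, 4348 and 4518 CPM in polysome RNA (log2 ratio 1.08, SE 0.05). The galectin LGALS1 and the glutathione transferase GSTP1 had ratios of 1.61 and 1.53. YBX1, which encodes an RNA-binding protein that packages messenger RNA, moved the other way, from 1072, 1052, 1030 and 1010 to 437, 412, 419 and 372 CPM (log2 ratio -1.35, SE 0.06). In all 4 genes the fractions did not overlap. After the GC and length correction GAPDH stood at 0.65.

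Of the 8 protein-coding genes that fell most by the same rule, 6 were mitochondrial, and the other two were TIGD1 and ZFP36L1. The mitochondrial genome encodes 13 proteins, all of them subunits of the respiratory chain or ATP synthase, and their messages are translated by mitochondrial ribosomes inside the organelle. All 13 messages were lower in polysome RNA (0 higher, 13 lower), beside 30.0% called lower among genes of at least 10 CPM. Their median log2 ratio was -3.18 beside -0.29 for all genes tested, and -2.59 after the GC and length correction. MT-ND4, a complex I subunit, had 5038, 5113, 5499 and 5309 CPM in input and 195, 267, 133 and 538 CPM in polysome RNA (log2 ratio -4.41, SE 0.24, adjusted p = 4.5e-09). MT-ND5 was the least reduced, from 403, 420, 378 and 456 to 162, 184, 73.8 and 152 CPM (log2 ratio -1.61, SE 0.14, and -1.06 after the correction). Summed over the 13 messages, the level was 34764 to 36714 CPM in the input libraries. In polysome RNA it was 2435, 3045, 1684 and 6818 CPM in CT1, CT2, U1 and U2, so U2 kept the most and U1 the least while inputs were alike. The median ratio was -3.50 without U2 and -2.85 without U1.

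Mitochondrial ribosomal RNA was lower too. MT-RNR2, the large ribosomal RNA, stood at 12179, 11266, 10481 and 10333 CPM in input and at 571, 732, 424 and 999 CPM in polysome RNA (log2 ratio -4.09, SE 0.15). MT-RNR1, the small one, had a log2 ratio of -4.50 (SE 0.23). U2 again held the highest polysome level of both. MTATP6P1, a nuclear copy of mitochondrial sequence, followed with a log2 ratio of -3.28, but reads of such copies cannot be told apart with confidence from those of the organelle.

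The nuclear genes for the same complexes went the other way. Of 76 nuclear-encoded subunits of the respiratory chain and ATP synthase, 57 were higher, 6 were lower and 13 were not called, with a median log2 ratio of 0.72. By complex, the median was 0.72 over 37 subunits of complex I, 0.16 over 4 of complex II (2 higher, 1 lower), 0.57 over 9 of complex III, 1.16 over 11 of complex IV and 0.46 over 15 of ATP synthase. All 11 complex IV subunits were called higher, whereas its 3 mitochondrial subunits were called lower with a median of -3.02. NDUFB2, an accessory subunit of complex I, rose from 106, 131, 128 and 147 to 302, 359, 398 and 555 CPM (log2 ratio 1.63, SE 0.08, adjusted p = 3.6e-09). NDUFB7, of the same complex, went from 203, 214, 206 and 225 to 643, 678, 669 and 626 CPM (log2 ratio 1.63, SE 0.07). The 6 lower members included SDHD, the membrane anchor of succinate dehydrogenase, at a log2 ratio of -0.89, and the catalytic complex I subunit NDUFS1 at -0.85. After correction for GC content and length these stood at -0.39 and -0.33, neither of them called. The list's median by lysate was 0.76, 0.75, 0.72 and 0.80. After the same correction the list had a median of 0.85, with 63 members higher and none lower at the threshold. Of all 16503 genes 3339 were then called higher and 1869 lower.

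**Figure D3:**
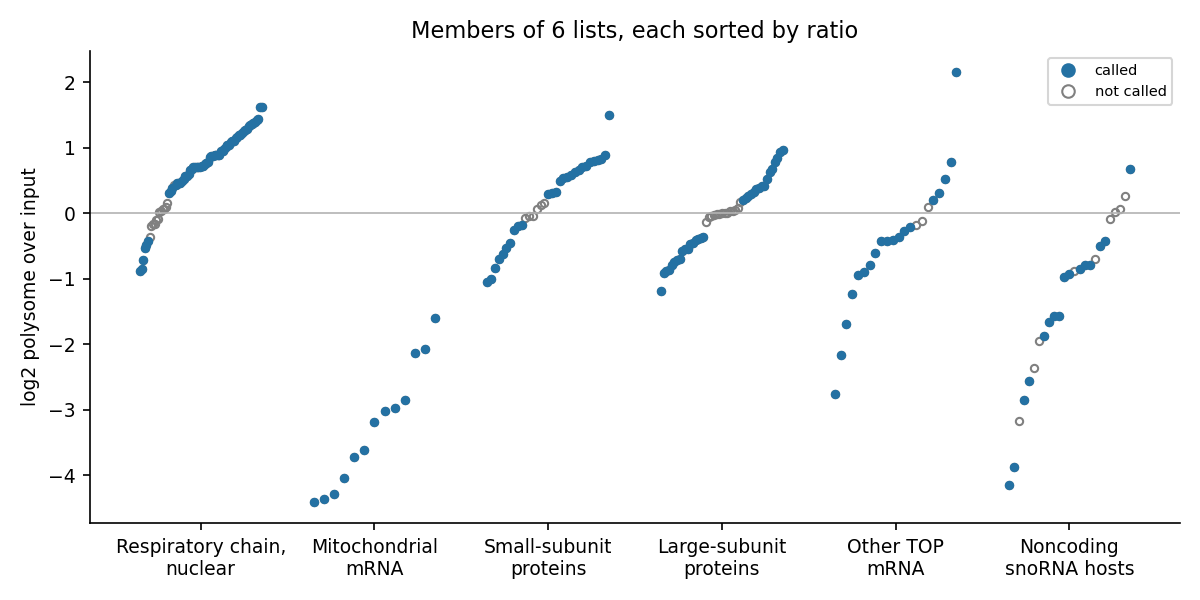
Log2 polysome to input ratio of each tested member of 6 lists, sorted within the list, filled where called at an adjusted p under 0.05. Nuclear respiratory chain genes lie mostly above 0 (57 of 76 called higher), all 13 mitochondrial messages lie below, and ribosomal protein genes spread on both sides.

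Messenger RNAs of ribosomal proteins and several translation factors begin with a C followed by an unbroken run of pyrimidines, the 5′ terminal oligopyrimidine (TOP) tract, through which growth signalling governs their translation. Of 47 large-subunit genes 16 were higher (34.0%) and 17 lower (36.2%), with a median log2 ratio of 0.01. These shares are near the 39.3% and 30.0% among abundant genes, so the counts say little about that list. Of 33 small-subunit genes 17 were higher (51.5%) and 10 lower (30.3%), with a median of 0.29. Of 22 other listed TOP genes 5 were higher (22.7%) and 14 lower (63.6%). Their median of -0.39 became 0.09 after correction for GC content and length. These genes thus did not move as a block: their ratios ran from -1.19 to 1.5 for ribosomal proteins and from -2.76 to 2.15 for the others. The value of 2.15 is that of EEF1G, whose counts are uncertain as said above. The 5 other TOP genes called higher, EEF1G among them, had a median of 0.51. Most ribosomal protein genes have processed pseudogenes, and their counts are uncertain to that extent.

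The lowest ribosomal protein was RPL12, at 3043, 3013, 3076 and 3419 CPM in input and 1416, 1277, 1522 and 1281 CPM in polysome RNA (log2 ratio -1.19, SE 0.07, adjusted p = 6.2e-09). RPS6, the ribosomal protein phosphorylated by S6 kinase, went from 3223, 3171, 2958 and 3107 to 1446, 1492, 1480 and 1589 CPM (log2 ratio -1.05, SE 0.06). At the other end stood FAU, which encodes a small-subunit protein fused to a ubiquitin-like domain, with 389, 404, 446 and 471 CPM in input and 1116, 1128, 1236 and 1353 CPM in polysome RNA (log2 ratio 1.5, SE 0.06, adjusted p = 5.2e-10). RPL32, RPL27 and RPS15 followed with log2 ratios of 0.96, 0.93 and 0.89. In each of these 6 genes input and polysome libraries did not overlap. The GC and length correction left RPS6 at -0.43 and RPS15 at 0.42, both still called.

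Among the other TOP genes, TPT1, which encodes the translationally controlled tumour protein, fell from 1114, 1119, 1261 and 1167 CPM to 267, 243, 289 and 244 CPM (log2 ratio -2.16, SE 0.07, adjusted p = 3.2e-11). EIF3H, a subunit of initiation factor eIF3, had a ratio of -1.69 (SE 0.09), which was -1.0 after the correction. The elongation factor gene EEF1A1 was slightly lower (log2 ratio -0.43, SE 0.05), while EEF2 was higher (0.51, SE 0.08), at 1304, 1337, 1517 and 1560 CPM in input and 2076, 2238, 1969 and 1876 CPM in polysome RNA. The correction for GC content and length left EEF2 at 0.11, no longer called.

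Genes on both sides of 0 began with such a tract. Each line below runs 20 bases before the annotated start to 20 from it, from the RefSeq promoter table on GRCh38.p14, on the gene's strand, with the C-led pyrimidine run that begins at the start base in capitals. RPL12 and RPS6 are the lowest ribosomal proteins, FAU the highest, RPS19 a further member that was higher (0.53), TPT1, EEF1A1 and EEF2 are the factors named above, SNHG5 and SNHG19 are noncoding hosts, and ISG15 has no run.
RPL12, log2 ratio -1.19, chr9:127451387-127451426: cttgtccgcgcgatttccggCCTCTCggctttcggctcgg
RPS6, log2 ratio -1.05, chr9:19380217-19380256: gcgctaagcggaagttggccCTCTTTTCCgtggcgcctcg
FAU, log2 ratio 1.5, chr11:65122115-65122154: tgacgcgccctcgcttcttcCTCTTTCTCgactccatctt
RPS19, log2 ratio 0.53, chr19:41860235-41860274: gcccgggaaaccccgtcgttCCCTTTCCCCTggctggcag
TPT1, log2 ratio -2.16, chr13:45341164-45341203: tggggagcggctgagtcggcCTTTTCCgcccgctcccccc
EEF1A1, log2 ratio -0.43, chr6:73521013-73521052: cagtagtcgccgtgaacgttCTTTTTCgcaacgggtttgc
EEF2, log2 ratio 0.51, chr19:3985444-3985483: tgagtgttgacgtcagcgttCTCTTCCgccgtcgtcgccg
SNHG5, log2 ratio -2.57, chr6:85678714-85678753: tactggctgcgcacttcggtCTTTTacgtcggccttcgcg
SNHG19, log2 ratio -3.88, chr16:2155339-2155378: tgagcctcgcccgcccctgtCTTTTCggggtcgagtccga
ISG15, log2 ratio 1.79, chr1:1013477-1013516: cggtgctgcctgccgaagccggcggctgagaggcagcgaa

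The motif, a C at the start base followed by at least 4 pyrimidines on the transcribed strand, was held by 1429 of 35116 starts in that table (4.07%). Genes with several listed starts were given their longest run. Among nuclear protein-coding genes of at least 10 CPM, 551 held it, with a median log2 ratio of 0.09, and 6004 with a listed start did not, with a median of 0.11. Of 80 ribosomal protein genes, 48 held it, of which 20 were higher and 16 lower with a median of 0.04. A further 16 had a listed start without such a run, of which 7 were higher and 4 lower with a median of 0.08. Over all 80 genes 33 were higher and 27 lower, and among genes of at least 10 CPM 39.3% were higher and 30.0% lower. Both splits are near these shares, so the counts say little about the run. A start without the run says only that those letters are not at that annotated base.

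Among the large classes of genes, long noncoding RNA had the lowest median. Over 2330 long noncoding RNA genes tested the median fitted log2 ratio was -1.30, with 63 called higher (2.70%) and 274 lower (11.8%). Both shares are below the 20.6% and 22.4% of all genes tested. The class was scarce, with a median input level of 0.72 CPM. Its medians in single lysates were nearer 0, at -0.79, -0.59, -0.67 and -1.06 in CT1, CT2, U1 and U2. Over 13078 nuclear protein-coding genes the fitted median was -0.17, with 3284 higher (25.1%) and 3280 lower (25.1%). The gap was smaller among abundant genes. At a mean of at least 10 CPM, 149 long noncoding genes had a median of -0.25, with 32 higher (21.5%) and 61 lower (40.9%). The 7888 nuclear protein-coding genes at that level had a median of 0.10, with 3144 higher (39.9%) and 2345 lower (29.7%). Pseudogenes of at least 10 CPM, 101 in number, had a median of 0.11. Antisense genes cannot be told apart from their partners without a known strand setting, and without them the 89 remaining long noncoding genes of at least 10 CPM had a median of -0.34.

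The hosts of small nucleolar RNAs carry the RNAs in their introns, and some of their spliced products are known to be bound by ribosomes and then decayed. Of 25 noncoding hosts tested 1 was higher (4.0%) and 15 were lower (60.0%), beside 39.3% and 30.0% among abundant genes. Their median log2 ratio was -0.94, and -0.93 after correction for GC content and length. Below SNHG3 came SNHG19, at 22.3, 29.3, 18 and 26.3 CPM in input and 1.45, 4.68, 0.725 and 1.06 CPM in polysome RNA (log2 ratio -3.88, SE 0.31). SNHG5 went from 244, 243, 221 and 215 to 45.4, 42.5, 39.1 and 29.9 CPM (log2 ratio -2.57, SE 0.09). Of 21 hosts with a listed start, 6 held the pyrimidine run described above. GAS5, a growth-arrest host whose listed start does not hold it, stood at 155, 175, 155 and 171 CPM in input and 49.7, 54.0, 50.3 and 52.3 CPM in polysome RNA (log2 ratio -1.67, SE 0.08, and -0.94 after the correction). SNHG7 was the 1 host called higher (log2 ratio 0.67, SE 0.10), a call lost after the GC and length correction, at 0.24.

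Of 16 listed nuclear or microRNA-hosting noncoding genes, with LINC-PINT under 2 identifiers, none was higher and 13 were lower (81.25%, median -1.55). Of all genes tested 22.4% were lower. After correction for GC content and length the median was -0.70 and 6 were called lower, beside 1869 of all 16503 genes. NEAT1, the scaffold of nuclear paraspeckles, had 451, 646, 451 and 510 CPM in input and 66.2, 85.2, 37.0 and 32.8 CPM in polysome RNA (log2 ratio -3.30, SE 0.16, adjusted p = 1.9e-09). MALAT1, a nuclear speckle RNA, stood apart. Its input levels were 28.8, 28.2, 24.7 and 23.1 CPM and its polysome levels 13.5, 304, 5.21 and 2.22 CPM, so a single library, polysome CT2, held over 10 times its input level while the other 3 were below theirs. MALAT1 was not called (log2 ratio -0.96, SE 0.77, adjusted p = 0.35) but was called without CT2, at -2.19 (adjusted p = 1.3e-09), and in the lysates labelled knockdown, at -2.74. Its ratio was above 0, and not called, with limma-voom (1.50), in the lysates labelled control (1.25) and without the lysate block (0.11). The direction for MALAT1 thus depended on the processing and the lysates used. RN7SL2, a gene for the RNA of the signal recognition particle, was the only tested member of 20 listed free ribonucleoprotein RNAs, at 23.4, 19.8, 20.5 and 17.1 CPM in input and 0.0289, 1.63, 0.613 and 0 CPM in polysome RNA.

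GC content went with the ratio more closely than length, upstream start codons or AU-rich elements did. Over 13072 nuclear protein-coding genes with a value, Spearman's rank correlation of the log2 ratio with the GC content of the exons was 0.55, and over the 7887 of at least 10 CPM it was 0.71, with 0.618 to 0.711 in single lysates. In the decile of lowest GC content (31.1% to 38.9%) the median log2 ratio was -0.95. Of its 1308 genes 12 were higher (0.917%) and 850 lower (64.98%). In the highest decile (61.7% to 74.7%) the median was 0.63. Of its 1308 genes 676 were higher (51.68%) and 20 lower (1.53%). The medians rose at every step between these deciles. Over all 13078 nuclear protein-coding genes tested, 25.1% were higher and 25.1% lower. GC content at the third codon position gave a rank correlation of 0.64 among genes of at least 10 CPM, that of the coding sequence 0.64, that of the 3′UTR 0.66 and that of the 5′UTR 0.16. Long noncoding RNA, which has no annotated coding sequence, showed the same direction, with a rank correlation of 0.52 over 149 genes of at least 10 CPM and 0.38 over 571 of at least 2 CPM. These correlations run across genes that share libraries, and no p is attached to them. Fraction and library preparation go together in this design, so a dependence of the libraries on GC content and one of polysome association cannot be told apart.

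**Figure D4:**
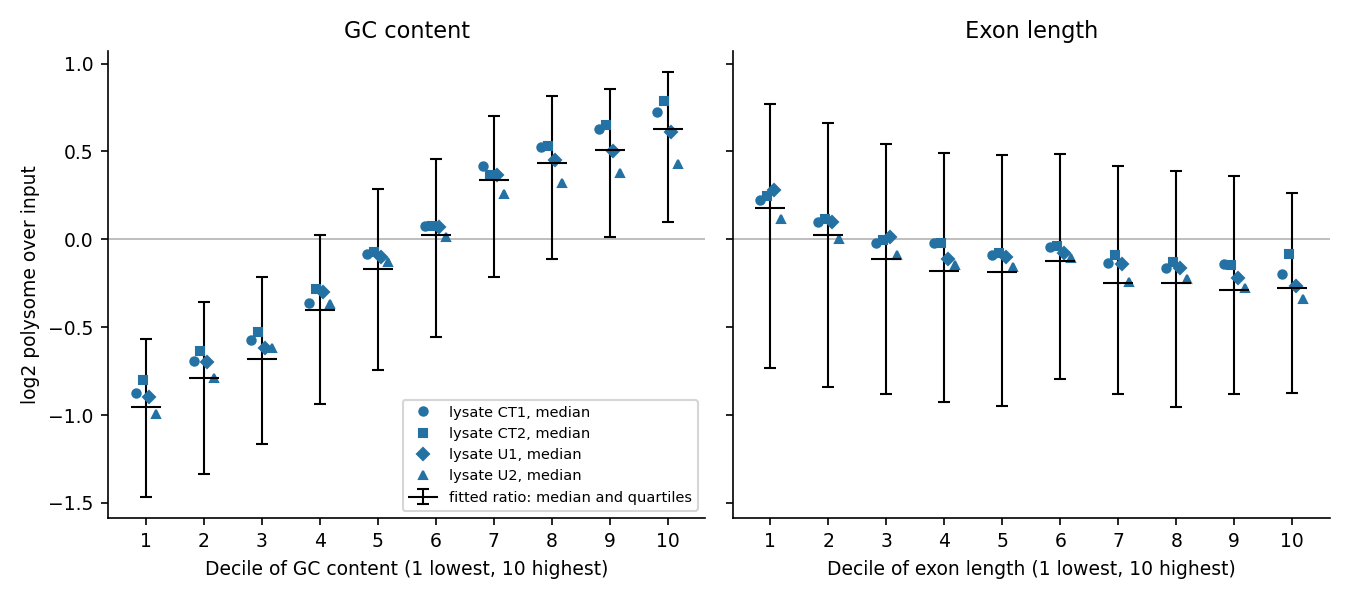
Log2 polysome to input ratio of nuclear protein-coding genes by decile of exon GC content (left) and exon length (right). Black marks give the median and quartiles of the fitted ratio, blue points the median in each lysate. The medians climb from -0.95 to 0.63 over the GC deciles and range from 0.18 to -0.29 over the length deciles.

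Transcript length had a weaker relation, which was small once GC content was held fixed. The rank correlation with exon length was -0.10 over all nuclear protein-coding genes and -0.17 at 10 CPM or more, and the partial rank correlation given GC content was 0.09 and 0.05. For the length of the representative transcript at 10 CPM or more it was -0.20, and -0.02 given GC content. The median log2 ratio was 0.18 in the decile of shortest transcripts and -0.27 in that of the longest, whose median GC contents were 55.3% and 44.0%. With genes of at least 10 CPM cut into 3 equal parts by GC content and again by length, the shortest genes of middle GC content had a median ratio of 0.09 and the longest 0.22. Among the GC-poor genes these medians were -0.65 and -0.54, and among the GC-rich genes they were 0.72 and 0.60, the reverse order. Coding length alone gave a rank correlation of -0.04 at 10 CPM or more (-0.04 given GC content) and 3′UTR length -0.25 (-0.02 given GC content).

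Sequence elements of the untranslated regions went the same way. AU-rich elements, bound by factors that speed decay, were counted as the pentamer ATTTA in the 3′UTR of a representative transcript. The 2805 genes of at least 10 CPM with none had a median log2 ratio of 0.50 and a median GC content of 56.3%, and the 1647 genes with 6 or more had -0.47 and 41.3%. The rank correlation with the count was -0.46, and -0.10 given GC content. An upstream ATG in the 5′UTR, a start codon ahead of the main one, made a small difference, with a median of 0.16 over 4017 genes without any and 0.05 over 1490 with 3 or more. A start codon in the favoured Kozak context (a purine at position -3 and G at +4, counted from the A of the ATG) gave 0.12 over 3622 genes, and genes with neither base gave 0.07.

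**Figure D5:**
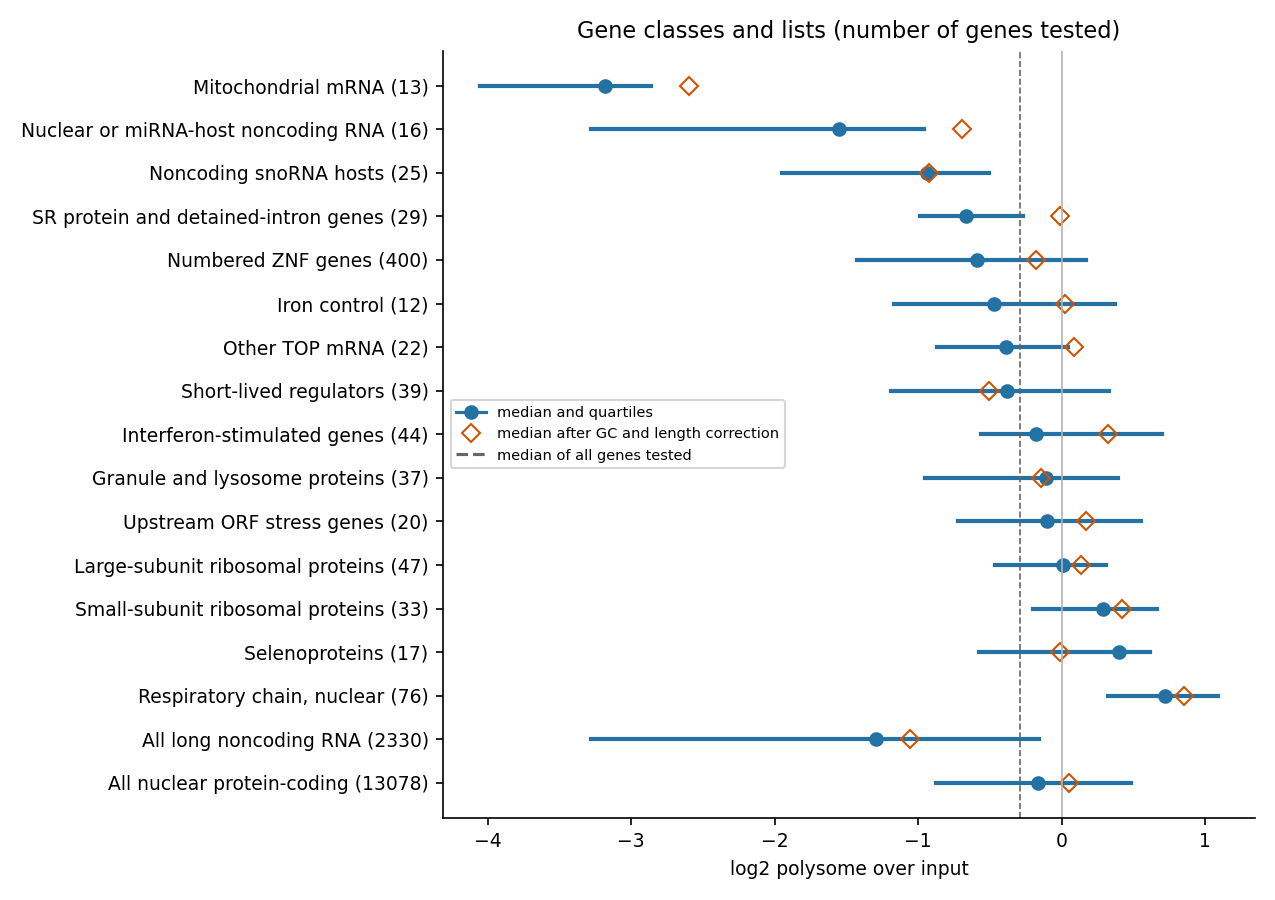
Median log2 polysome to input ratio (filled circles) with quartiles (bars) for 15 lists and 2 gene classes, and the median after correction for GC content and length (open diamonds). The dashed line is the median of all genes tested, -0.29. Mitochondrial messages, snoRNA hosts and nuclear respiratory chain genes keep the side of 0 they stand on, while SR protein genes move from -0.66 to -0.01.

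Genes for SR splicing factors and others known to retain introns were low as a group, with a median log2 ratio of -0.66. Of 29 tested, 3 were higher (10.3%) and 25 lower (86.2%), beside 39.3% and 30.0% among abundant genes. HNRNPDL, an hnRNP that controls its own splicing, stood at 200, 187, 210 and 189 CPM in input and at 67.3, 63.0, 72.5 and 71.4 CPM in polysome RNA (log2 ratio -1.52, SE 0.08). The splicing kinase CLK4 had a ratio of -1.80 (SE 0.31) with overlapping libraries. SRSF9, CLK3 and SNRNP70, a protein of the U1 particle, were the 3 higher members. The list's median GC content was 41.9%. After correction for GC content and length its median ratio was -0.01, with 5 members higher and 9 lower. Of all 16503 genes 3339 were higher and 1869 lower in that fit. HNRNPDL then stood at -0.91, CLK4 at -0.83, SRSF9 at 1.06 and CLK3 at 0.18, the last not called.

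Interferon-stimulated genes divided. Of 44 tested, 18 were higher (40.9%) and 19 lower (43.2%). The first share is near the 39.3% among abundant genes, and the second is above their 30.0%. The median of -0.18 became 0.32 after the correction, with 23 higher and 6 lower, beside 3339 and 1869 of all 16503 genes. Besides ISG15, IFI35 rose from 168, 213, 230 and 252 to 467, 558, 527 and 676 CPM (log2 ratio 1.37, SE 0.07). IFI44 went from 101, 112, 108 and 117 to 34.0, 30.5, 52.6 and 53.3 CPM (log2 ratio -1.40, SE 0.13), but stood at -0.38 after the correction. XAF1, a proapoptotic interferon target at low level, had a ratio of -1.79 (SE 0.48), not called in the lysates labelled knockdown alone. The higher members had a median GC content of 54.0% and the lower members 42.5%.

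The same separation by GC content appeared within some other lists, as it did over all nuclear protein-coding genes. It was slight among small-subunit ribosomal proteins, with a median GC content of 50.3% for higher and 49.7% for lower members. Of 37 granule and lysosomal proteins, 13 were higher, with a median GC content of 58.6%, and 12 were lower, with 42.7%. These shares (35.1% and 32.4%) are near the 39.3% and 30.0% among abundant genes, so the counts say little about the list. CTSG, the granule protease cathepsin G, went from 1769, 1912, 1543 and 1552 to 3123, 3406, 2914 and 2943 CPM (log2 ratio 0.87, SE 0.05). LYZ, lysozyme, went from 94.8, 118, 113 and 124 to 28.9, 35.3, 31.8 and 38.2 CPM (log2 ratio -1.74, SE 0.09, and -0.82 after the correction). Selenoproteins need recoding of a UGA codon. Among 17 tested, 9 were higher (52.9%) with a median GC content of 59.7% and 5 lower (29.4%) with 39.7%. The selenoprotein TXNRD2 had a ratio of 1.05 and SELENOT one of -1.11, and after the correction these were 0.63 and -0.07, the latter not called. Among 400 numbered zinc finger genes 59 were higher, with 60.0% GC, and 105 lower, with 41.7%. These shares are 14.8% and 26.2%, beside 20.6% and 22.4% of all genes tested. The list is scarce. Among its 145 genes in the fit of at least 10 CPM 53 were higher and 50 lower, with a median of -0.07. That fit called 2954 of its 8194 genes higher and 3020 lower, with a median of -0.02. The list's counts are near those shares and say little about it.

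Iron genes are a textbook case of control by the iron regulatory proteins, which block ferritin translation from the 5′UTR. Both ferritin messages were lower in polysome RNA. FTL, the light chain, went from 7309, 7374, 9944 and 9344 to 4312, 4106, 5261 and 4396 CPM (log2 ratio -0.90, SE 0.06, adjusted p = 1.4e-08). FTH1, the heavy chain, had a ratio of -1.08 (SE 0.09), although 62.4% of its exon bases are shared with another annotated gene. The correction left FTL at -1.12 and FTH1 at -0.92. TFRC, the transferrin receptor, whose message the same proteins stabilise, was also lower, at 125, 86.9, 111 and 65.7 CPM in input and 53.1, 34.0, 40.9 and 18.6 CPM in polysome RNA (log2 ratio -1.46, SE 0.11, and -0.77 after the correction). Of 12 iron genes 3 were higher and 6 lower, with a median of -0.47 that became 0.02 after the correction.

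Short-lived regulators, the immediate early and feedback genes, included more lower than higher members without being GC-poor. Of 39 tested, 10 were higher (25.6%) and 18 lower (46.2%), beside 39.3% and 30.0% among abundant genes. The list had a median log2 ratio of -0.38 and a median GC content of 55.4%. After correction 1 was higher and 19 lower with a median of -0.50. The corrected fit called 3339 of all 16503 genes higher and 1869 lower. ZFP36L1, which encodes a protein that binds AU-rich elements, had 8.71, 8.35, 21.8 and 29.7 CPM in input and 0.926, 0.331, 1.92 and 4.24 CPM in polysome RNA (log2 ratio -3.46, SE 0.30). NFKBIZ, an atypical inhibitor of NF-κB, went from 21.7, 26.0, 28.2 and 26.4 to 3.97, 5.51, 6.72 and 7.43 CPM (log2 ratio -2.15, SE 0.18). The kinase gene PIM3 was the highest called member at 0.84 (SE 0.07), and at 0.26 after the correction.

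Genes with upstream open reading frames that serve the integrated stress response were found on both sides. Of 20 tested 6 were higher (30%) and 7 lower (35%), near the background of abundant genes, so the counts say little about the list (median -0.10, and 0.17 after the correction). ATF4, its central transcription factor, stood at 881, 723, 746 and 668 CPM in input and 796, 683, 714 and 583 CPM in polysome RNA, a log2 ratio of -0.12 (SE 0.06) that was not called (adjusted p = 0.13) but was after the correction, at -0.46. Its targets TRIB3 and SESN2 had ratios of 0.97 and 0.96, and of 0.59 and 0.57 after the correction. Of 12 polyamine genes 5 were higher and 5 lower (41.7% each), which with so few genes says as little. DOHH and DHPS, which make the hypusine of initiation factor eIF5A, had ratios of 1.30 and 0.86, and the catabolic enzyme SAT1 had -1.34. These became 0.74, 0.53 and -0.76 after the correction. The median of this list was 0.07, and it was -0.33 in a fit restricted to genes of at least 10 CPM.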

How the data were processed

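RNA sequencing libraries of input and polysome RNA from 4 lysates were used. Whole-number counts of reads for each gene were deposited, which the authors obtained with Trimmomatic 0.38, Bowtie2 and HTSeq 0.11.2 on GRCh38, per the submitters' processing notes. Of annotation release, read layout and strand, the sources used here say nothing. Lines that name no gene (13.2% to 15.0% of reads listed) were left out. From these counts, edgeR 4.0.16 in R 4.3.3 fitted lysate and fraction with TMM scaling, filterByExpr (16503 genes of 58395) and the quasi-likelihood F test on 3 residual degrees of freedom. P-values were adjusted by Benjamini-Hochberg over all genes tested and called under 0.05. Each SE of a log2 ratio is the size of the ratio divided by the square root of its F statistic. It is thus derived from the test and approximate for scarce genes. Levels are CPM after TMM. Log2 ratios, fold differences and class medians come from the edgeR fit unless single lysates are named. Ratios of single lysates are differences of log2 CPM with a prior count of 2, which pulls those of scarce genes towards 0. In simulated counts for 16503 genes, 50 genes per size of change were altered, all with a mean of at least 1 CPM. Of those set 1 log2 unit higher 88.0% were recovered, and of those set 1 lower 64.0%. For 0.5 higher and lower, 30.0% and 38.0% were recovered. The simulation held no trend on GC content, and its recovery does not cover genes below 1 CPM. It altered a small part of the genes, whereas 43.0% were called in the data. Adjusted p-values depend on that share, so its recovery rates do not carry over to the data. Pairing comes from the shared lysate in the titles and protocol. Deviations of input and polysome libraries from their group means correlated over 8159 genes with r = 0.312 (CT) and 0.356 (U).

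Libraries of 1 group differed by a chi-square of 22.1 to 48.7 per degree of freedom, more than sampling noise. GENCODE 29 gave gene types, exon GC content, lengths and coordinates on GRCh38 for 58275 identifiers, and 120 had none. Bowtie2 does not split reads across introns, so junction reads may be lost or placed on processed pseudogenes. The GC and length correction subtracted a smooth trend per library, fitted with mgcv 1.9.3.

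The comparison, its gene lists and the genes of interest were chosen with earlier results of these data known. The rule for named genes took SNHG3, PABPC1, ISG15 and FBL, then by size of called ratio the 8 protein-coding genes in each direction with at least 10 CPM in the higher fraction and the same direction in all lysates, 5 long noncoding genes in each direction, 2 per direction in other gene types and in each list, and genes of at least 1000 CPM with a log2 ratio beyond 1. Not all are printed, since ratios of scarce RNA varied widely between lysates. EEF1A1, EEF2, GAS5, SNHG5, RPS19, MT-ND5, SNRNP70, FTL, FTH1, TFRC, CD33, SPI1, MALAT1, NEAT1 and ATF4 were added after their values were seen. Alternatives were RLE, upper quartile and protein-coding TMM scaling, other filters, DESeq2 1.42.0, limma-voom 3.58.1, no lysate block, GC and length offsets, single labels, thinned counts and leaving out each lysate.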

Additional observations from a re-analysis of the deposited data

Results flagged for a closer look

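The label difference in polysome association (labelled knockdown minus labelled control, log2) passed the test for 3 of the 95 genes checked. None of them was called without the lysate block. At a mean of at least 10 CPM, with limma-voom and without CT2, MIR142HG was the 1 of the 3 still called, and without CT1 MIR142HG and CLSPN were. MIR142HG differed by -1.42 (adjusted p = 3.0e-05, edgeR interaction), with lysate ratios of -1.74, -1.58, -3.23 and -2.92 in CT1, CT2, U1 and U2. NEAT1 differed by -0.93 (adjusted p = 0.0044), with -2.77, -2.92, -3.61 and -3.95. CLSPN differed by -2.69 (adjusted p = 0.026), with 2.64, 4.70, 1.20 and 0.74. FBL counts do not bear out these labels, and no cause was tested.

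The log2 ratio of CTSS, the lysosomal cysteine protease cathepsin S, was -1.39 in lysate U2, apart from -1.78 to -1.73 in the other 3. It was the single such value among the 95 genes, where chance alone gives about 1 in 20 groups of 4.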

How the results depend on the processing

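Without the replicate block the comparison called 6931 genes (3302 higher, 3629 lower) and the label difference 0 genes (1046 at an unadjusted p under 0.05). The label difference was called for 9 genes with the block, for 186 with no filter, 1 at a mean of at least 10 CPM, 165 with DESeq2, 14 with limma-voom, 20 after the GC and length correction, 3 with thinned counts and 1 to 924 on leaving out a lysate (924 without U1), where the lone lysate of a label is assumed to vary like the others. Calls lower in polysome RNA numbered 1869 after the GC and length correction and 2457 in the lysates labelled knockdown alone. The rank correlation with GC content was 0.44 with no filter, 0.71 at a mean of at least 10 CPM (also within the same fit), 0.020 after the GC correction by construction, and 0.50 to 0.54 on leaving out a lysate. That with length was -0.046 with no filter, -0.17 at a mean of at least 10 CPM in a new fit or the same fit, -0.014 after the correction, -0.13 in the lysates labelled knockdown, -0.12 with thinned counts and -0.13 by representative transcript. The median of long noncoding RNA was -0.36 at a mean of at least 10 CPM, -0.78 with limma-voom, -0.92 without the block, -1.06 after the correction, -0.90 and -1.05 in the lysates of either label and -0.96 thinned. The median with minus without a pyrimidine run was 0.016 in the lysates labelled control. Under the correction AZIN1 (main -0.67) went to 0.0039 and BIRC2 (main -0.88) to 0.050. Of 95 genes checked, chosen after their values were seen, 89 had a value in all 16 alternatives, and 72 of these kept direction and side of the threshold in each. The other 6 fell under the filter at 10 CPM. The fit restricted to at least 10 CPM shifted ratios by a median of -0.11 and the GC and length correction by 0.14. Causes of these changes were not tested.

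Limits: 4 lysates leave 3 residual degrees of freedom, and genes below 1 CPM varied by a median SD of 1.78 log2 units, so their ratios say little. Ratios are relative to the other transcripts of a library. The polysome library of U2 was the shallowest.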

Other observations

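Markers of the myeloid lineage that the line derives from were divided between the fractions: of 16 tested, 6 were higher in polysome RNA, 4 were lower and 6 were not called, near the shares among abundant genes. CEBPA, a transcription factor of granulocytes, had 172, 233, 180 and 226 CPM in input RNA of CT1, CT2, U1 and U2 and 409, 541, 401 and 383 CPM in polysome RNA (log2 ratio 1.10, SE 0.09, adjusted p = 1.0e-07, edgeR). The adaptor TYROBP was higher (0.80, SE 0.08), and the Fc receptor chain FCER1G was lower (-1.04, SE 0.10), both with overlapping libraries. After correction for GC content and length CEBPA stood at 0.53 and TYROBP at 0.49. The surface receptor CD33 fell from 20.0, 22.8, 14.1 and 22.7 CPM to 9.49, 8.10, 11.9 and 8.87 CPM. The median of these markers was 0.18, and -0.27 after the same correction.

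Among 43 of 63 listed histone genes that were tested, 2 were higher (4.65%) and 6 lower (14.0%), below the shares of 20.6% and 22.4% among all genes tested. Most were scarce, with a median input level of 0.87 CPM, and below 1 CPM only 3.73% of all genes were called. In the fit of genes of at least 10 CPM, 1 of 5 was higher and 2 were lower, so the counts say little about the list. H1-10, a linker histone gene, stood at 771, 794, 815 and 917 CPM in input (log2 ratio 0.59, SE 0.07), and 0.08 after the correction. Of 400 numbered zinc finger genes the 2 highest called were ZNF428 and ZNF263, with log2 ratios of 1.31 (SE 0.11) and 1.24 (SE 0.08).

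Among abundant long noncoding genes, MILIP rose from 19.3, 15.0, 15.7 and 20.1 CPM to 35.6, 50.2, 35.8 and 30.4 CPM (log2 ratio 1.10, SE 0.17, and 0.57 after the correction). The antisense gene GTF3C2-AS2 went from 15.9, 16.7, 10.9 and 13.3 CPM to 0.289, 3.25, 3.01 and 0 CPM, without a known strand setting to part it from its partner.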
